A study of Vulpes lagopus with 12 samples.

Results

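The genes described here make glutathione, recycle it, import its scarce building block, or control the transcription factor NRF2. They were read in Arctic fox (Vulpes lagopus) blood as all probe sets whose only gene symbol was one of NFE2L2, KEAP1, MAFG, SLC7A11, GCLC, GCLM, GSS, GSR and GSTP1. Of these 9 genes, 8 had such a probe set, 14 probe sets in all out of 42924 tested. GSTP1, a glutathione transferase, had no probe set of its own symbol: 3 probe sets carried it beside other symbols, so it was skipped. The RefSeq gene table of the Arctic fox holds all 8 measured symbols. Where a gene had several probe sets, the one with the highest mean over the arrays is called its main probe set, and the panel titles of the plot of member values give every probe set's identifier.

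RNA came from blood drawn into stabilising tubes and was hybridised to Affymetrix Canine Genome 2.0 arrays, which carry probes for dog transcripts. There were 11 fox arrays, numbered here in the order of the series, and 1 array titled canine control. The title of that array conflicts with its organism label, which names the Arctic fox, so whether it carried dog or fox RNA is not settled by the labels. The contaminants the series set out to study were polychlorinated biphenyls (PCBs) and mercury, but the labels gave no exposure, age, sex or treatment per fox, so the foxes form 1 group. The labels do not state that the 11 samples are 11 animals, so p-values measure the spread between these samples, which may in part be technical.

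Glutathione is a small peptide of glutamate, cysteine and glycine that buffers cells against oxidants and binds electrophiles and mercury through its thiol. The transcription factor NRF2, encoded by NFE2L2, is held in the cytoplasm and sent for degradation by KEAP1; when cysteines of KEAP1 are modified, NRF2 builds up, pairs with a small MAF protein such as MAFG, and activates genes of glutathione synthesis. Since this switch acts on the protein, the level of NFE2L2 RNA is not a reading of NRF2 activity.

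The arrays were not alike. Foxes 9, 10 and 11 stood apart on a pair of GAPDH control probe sets: the 3′ minus the middle value was 0.42 to 1.08 there, 2.56 to 3.19 in the other foxes and −0.08 on the control (all values are log2). For another GAPDH pair the ranges overlapped, at −0.96 to −0.60 against −0.77 to −0.28, with 1.32 on the control. An actin pair gave 0.16 to 0.26 against 2.14 to 5.21, and another actin pair 4.40 to 5.11, inside the 3.84 to 5.78 of foxes 1 to 8. Array-wide SDs were 1.93 to 2.02 for foxes 9 to 11, 1.60 to 1.79 for the others and 2.11 for the control. The control array also went against its blood label: 7 of 9 measured liver markers lay above every fox there, with a list mean of 13.37 against 7.59 to 7.77, and 7 of 9 measured neutrophil markers lay below every fox, with a mean of 7.33 against 9.09 to 11.21. Of 9 measured intestinal markers 7, and of 7 muscle markers 5, also lay above every fox. Beside these counts, 21.9% of all tested probe sets lay above every fox on that array and 55.1% below. In whole blood, fewer cells of a type and less RNA per cell cannot be told apart.

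Among the regulators, NFE2L2 was read by 3 probe sets that did not move together. By its main probe set, NFE2L2 stood at 11.08, 12.08, 11.80, 12.04, 11.24, 11.51, 11.92 and 12.30 in foxes 1 to 8, at 12.31, 12.58 and 12.23 in foxes 9 to 11, and at 11.30 on the control. Foxes 1 and 5 were the lowest and fox 10 the highest, and fox 8 reached into the range of foxes 9 to 11. The probe set with the suffix _at spanned only 6.36 in fox 5 to 6.96 in fox 10, and the other _s_at probe set 6.45 in fox 2 to 7.59 in fox 10. Fox 10 was thus highest by each of the 3 probe sets, while the lowest fox differed. Over foxes 1 to 8 their pairwise Pearson correlations were 0.17, 0.40 and 0.27 (n = 8, a description). The suffix _s_at marks a probe set whose probes match more than a single transcript.

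KEAP1, the inhibitor of NRF2, was higher in foxes 9, 10 and 11. It stood at 7.51, 7.33, 7.57, 7.71, 7.55, 7.77, 7.65 and 7.73 in foxes 1 to 8, at 8.04, 8.55 and 8.21 in foxes 9 to 11, and at 8.20 on the control. The 3 foxes lay above all of foxes 1 to 8, whose SD was 0.14, and the control lay among the 3.

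MAFG, the small MAF partner of NRF2, ran the other way, though its ranges overlapped. By its main probe set, of suffix _x_at, it stood at 8.08, 8.16, 7.94, 7.80, 8.10, 8.15, 7.90 and 7.83 in foxes 1 to 8, at 7.48, 7.68 and 7.85 in foxes 9 to 11, and at 6.84 on the control. Foxes 9 and 10 lay below all of foxes 1 to 8 and fox 11 did not. The MAFG probe set of suffix _at ran from 7.10 in fox 11 to 7.74 in fox 5 and correlated with it over foxes 1 to 8 (Pearson's r 0.80, n = 8). The suffix _x_at marks probes that may also match other sequences.

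SLC7A11, the cystine importer that supplies cysteine for glutathione, showed no pattern between the foxes. It stood at 5.82, 6.26, 5.95, 6.23, 6.43, 5.87, 6.45 and 5.99 in foxes 1 to 8, at 6.37, 6.65 and 6.11 in foxes 9 to 11, and at 4.79 on the control. Only the control lay outside the foxes. The values come with no detection call, so how much of such a level is signal was not measured.

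GCLC and GCLM are the catalytic and the modifier subunit of glutamate-cysteine ligase, the rate-limiting enzyme of glutathione synthesis, and the 2 subunits differed in pattern. GCLC, by its main probe set, stood at 6.63, 7.05, 6.49, 6.81, 6.60, 6.62, 6.93 and 6.98 in foxes 1 to 8, at 7.30, 7.67 and 7.50 in foxes 9 to 11, and at 8.81 on the control. Foxes 9 to 11 lay above all of foxes 1 to 8, and the control above every fox. The other GCLC probe set ran from 4.51 in fox 3 to 5.28 in fox 11, and there foxes 9 to 11 overlapped foxes 1 to 8.

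GCLM, by its main probe set, stood at 7.13, 8.09, 7.14, 7.84, 7.07, 7.43, 7.24 and 7.79 in foxes 1 to 8, at 7.04, 7.10 and 7.31 in foxes 9 to 11, and at 13.08 on the control. Foxes 2, 4 and 8 were the highest foxes, and foxes 9 to 11 overlapped the rest at the low end. By its other probe set it ran from 5.95 in fox 10 to 7.09 in fox 8, with 6.09, 5.95 and 6.49 in foxes 9 to 11 against 6.45 to 7.09 in foxes 1 to 8. Both GCLM probe sets thus had a lower mean in foxes 9 to 11, by 0.32 and 0.63, with overlapping ranges.

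GSS, glutathione synthetase, adds glycine in the last step of synthesis, and its 2 probe sets disagreed on fox 2. By its main probe set GSS stood at 8.79, 7.91, 8.83, 8.87, 8.98, 8.55, 8.44 and 8.88 in foxes 1 to 8, at 9.37, 9.33 and 9.02 in foxes 9 to 11, and at 9.67 on the control. Fox 2 was the lowest, foxes 9 to 11 lay above foxes 1 to 8, and the control lay above every fox. By the other probe set fox 2 was instead the highest at 7.62, fox 1 the lowest at 6.77, and foxes 9 to 11 (7.19 to 7.38) and the control (7.45) lay inside. Over foxes 1 to 8 the probe sets ran opposite (Pearson's r −0.76, n = 8, a description), so a difference between single foxes in GSS cannot be read from these data.

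GSR, glutathione reductase, which returns oxidised glutathione to its reduced form, varied most of the members over the 11 foxes. It stood at 6.45, 6.80, 6.85, 6.46, 7.07, 6.60, 6.75 and 7.27 in foxes 1 to 8, at 8.50, 7.96 and 8.29 in foxes 9 to 11, and at 7.62 on the control. All 3 lay above the other foxes, by 1.47 between the means or 2.77-fold, and the control fell between both sets. The SD over 11 foxes was 0.74, above that of 92.7% of all tested probe sets. Over foxes 1 to 8 alone it was 0.29, below the 0.43 of NFE2L2, 0.39 of GCLM and 0.35 of GSS by their main probe sets.

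**Figure D1:**
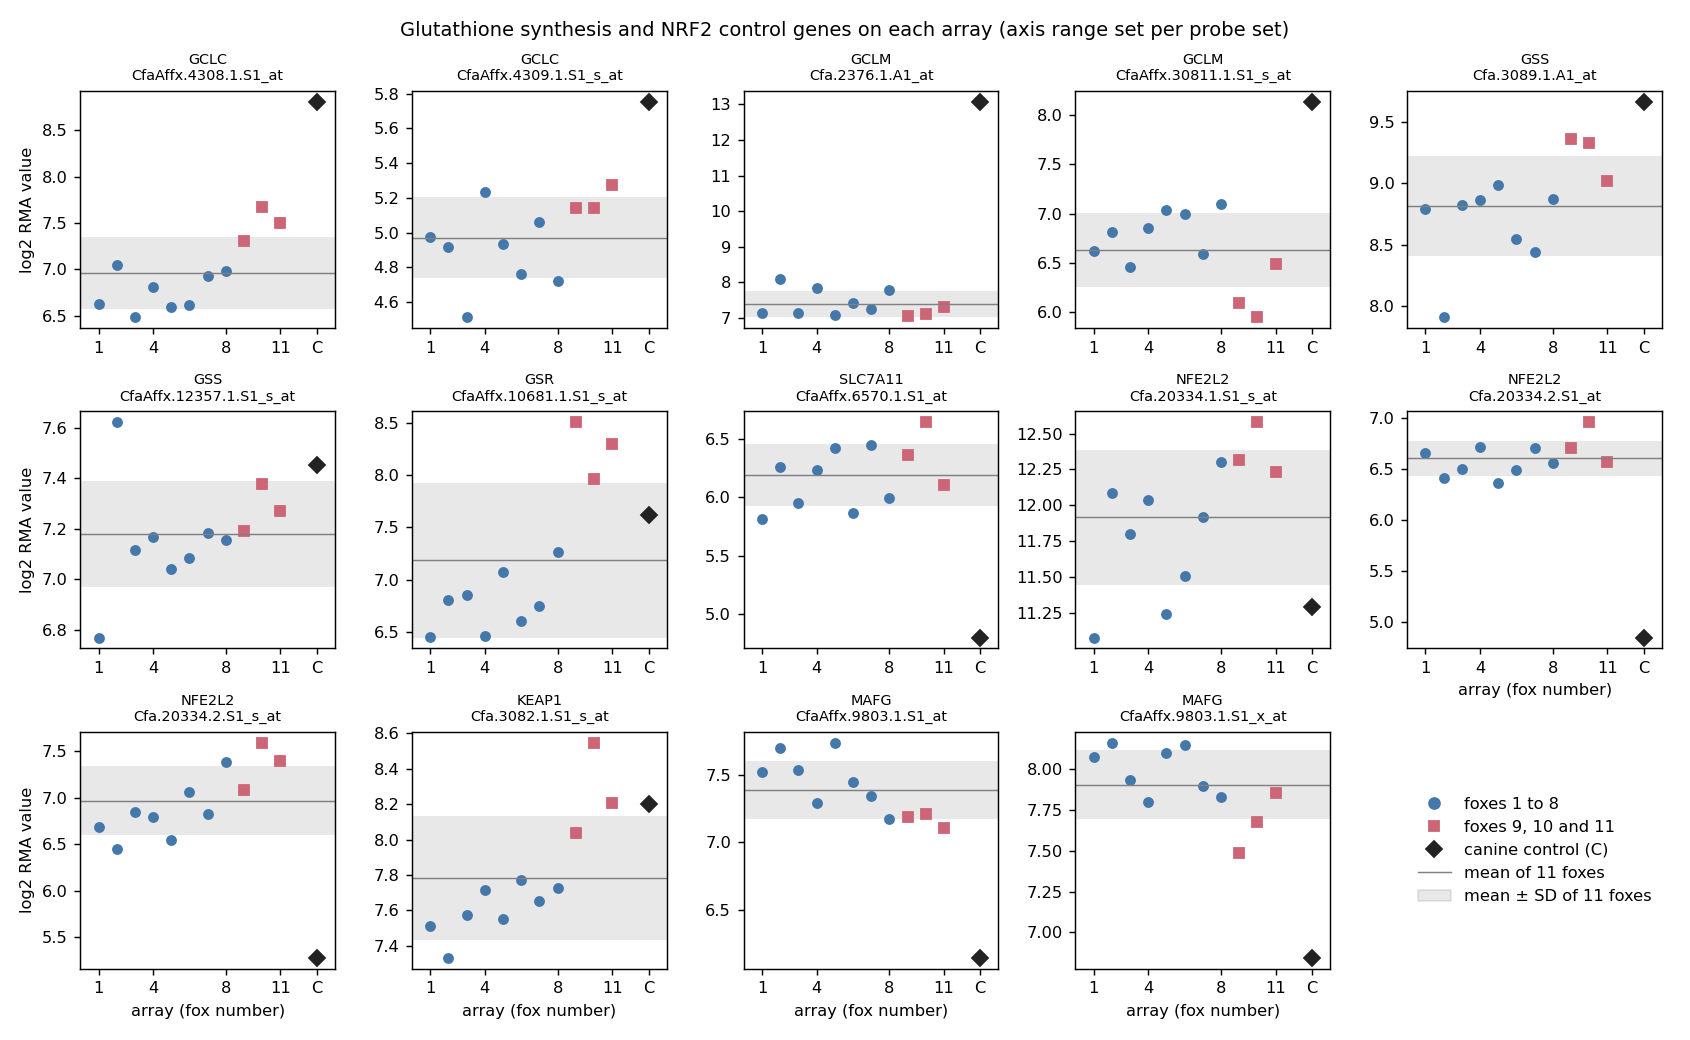
Log2 RMA values (vertical axis) of the 14 probe sets of the 8 measured genes on each array (horizontal axis), with foxes 1 to 8 as circles, foxes 9 to 11 as squares and the canine control as a diamond; the line and band are the mean and SD of the 11 foxes. GSR lay at 7.96 to 8.50 in foxes 9 to 11 against 6.45 to 7.27 in foxes 1 to 8, while GCLM stood at 13.08 on the control, far above every fox.

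In all, foxes 9, 10 and 11 lay above foxes 1 to 8 in 4 of 14 member probe sets, the main ones of GCLC and GSS and those of GSR and KEAP1, and below in 0. Over all tested probe sets 12.6% lay above in this way, 14.6% below and 27.2% either way. After quantile normalization again the members above were 3, without GSS, and NFE2L2 by its main probe set was the 1 below. Of all tested probe sets 10.1% then lay above and 14.1% below. The split is not a label but was seen in these arrays, so no test is given. The same 3 arrays differed in markers of blood cells: the list mean was 10.91 to 11.16 against 9.36 to 10.10 for monocytes, with 5 of 6 measured genes apart, and 8.59 to 8.78 against 8.05 to 8.33 for T cells, with 5 of 10 apart. NK cell markers stood at 7.96 to 8.61 against 7.01 to 7.65 (4 of 6 apart) and platelet markers at 8.87 to 9.23 against 7.77 to 8.70 (3 of 8). Neutrophil (2 of 9 apart), B cell (0 of 7) and red cell precursor (1 of 10, below) list means overlapped. The part of these cell markers, and of the GAPDH and actin values, in the members' levels was not tested.

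Set against the other foxes one at a time, which asks whether any single fox departed from the rest, the members gave no call. By limma with Benjamini-Hochberg adjustment, 0 of 154 combinations of a fox and a member probe set passed an adjusted p of 0.05, and 13 had an unadjusted p under 0.05. Over all probe sets the 11 fits called 0.0123% of combinations, 37 of those 58 in fox 2. The smallest adjusted p by limma, 0.173, was that of the main GSS probe set in fox 2, at 7.91 against a mean of 8.91 in the other 10 (SE of the difference 0.29). KEAP1 in fox 10 differed by 0.84 (SE 0.26, adjusted p 0.236 by limma). For GSS in fox 2 the second probe set went the opposite way, at 7.62 against a mean of 7.14 in the other 10. The median SD of the member probe sets was 0.36 over 11 foxes and 0.23 over foxes 1 to 8, beside 0.22 and 0.18 for all tested probe sets.

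Setting the control array beside the foxes shows which members lay outside the values of the fox arrays. The probes are for dog transcripts, and the labels do not settle whether the control carried dog or fox RNA. How far the match of probes to RNA bears on these differences was not tested. Both subunits of glutamate-cysteine ligase were higher on the control, and SLC7A11, MAFG and the NFE2L2 probe sets other than the main one were lower. GCLM was higher by 5.70 (SE 0.35) by the main probe set, from 7.38 ± 0.36 (SD, n = 11) to 13.08, and by the other probe set the control stood at 8.13 against 6.63 ± 0.37 (SE of the difference 0.36). GCLC was higher by 1.84 (SE 0.38), from 6.96 ± 0.39, and by 0.78 (SE 0.24), from 4.97 ± 0.23. Adjusted p-values by limma were 4.27e-08 and 0.00416 for GCLM and 0.0016 and 0.0141 for GCLC. All 4 probe sets lay above every fox, but the sizes for GCLM differ so much that a single fold for this gene cannot be given.

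On the lower side, SLC7A11 differed by −1.40 (SE 0.27), from 6.19 ± 0.27 (SD, n = 11) to 4.79, with an adjusted p by limma of 0.00103. MAFG differed by −1.06 (SE 0.22) and −1.25 (SE 0.23), with adjusted p-values by limma of 0.00155 and 0.000674. NFE2L2 differed by −1.76 (SE 0.18) and −1.69 (SE 0.36) by the _at and the second _s_at probe set, with adjusted p-values by limma of 7.79e-06 and 0.00192. By its main probe set it differed by −0.62 (95% interval −1.60 to 0.36, adjusted p by limma 0.243), from 11.92 ± 0.47 to 11.30, and the control lay inside the foxes; after quantile normalization again this was −1.67 (adjusted p by limma 0.000781). The 3 probe sets of NFE2L2 thus shared a direction but not a call.

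GSS, GSR and KEAP1 did not pass. GSS differed by 0.85 (95% interval −0.01 to 1.72) and 0.27 (−0.20 to 0.75), with adjusted p-values by limma of 0.0789 and 0.292. GSR differed by 0.44 (95% interval −1.08 to 1.95, adjusted p by limma 0.6) and KEAP1 by 0.41 (−0.33 to 1.16, adjusted p by limma 0.304). The calls depended on foxes 9, 10 and 11: without them limma called GSS by its main probe set (1.01, adjusted p 0.0179), GSR (0.84, adjusted p 0.0185) and KEAP1 (0.59, adjusted p 0.0086) higher on the control. GSS was also called without fox 2 (0.76, adjusted p by limma 0.0405) and once every array was centred on its median (1.12, adjusted p by limma 0.0454), but was at 0.22 after quantile normalization again (adjusted p by limma 0.638). Against the mean of foxes 9 to 11 alone, the control was lower by −0.63 in GSR and −0.07 in KEAP1, so the direction depends on which foxes it is set against.

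**Figure D2:**
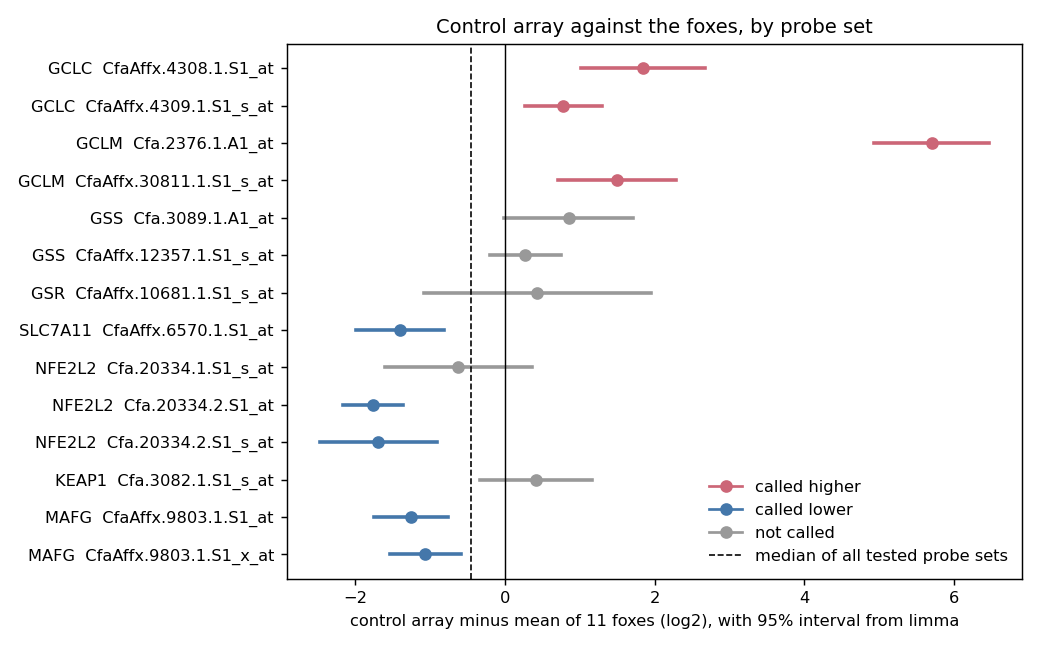
Control array minus the mean of the 11 foxes on the log2 scale (horizontal axis) for the 14 member probe sets (rows), with 95% intervals from limma; colours give the call, the dashed line the median of all tested probe sets, −0.46. GCLM by its main probe set lay at 5.70, the probe sets of SLC7A11 and MAFG and those of NFE2L2 other than the main one between −1.76 and −1.06, and the intervals of GSS, GSR and KEAP1 crossed 0.

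Counted over probe sets, limma called 4 of 14 higher and 5 lower, beside 18.9% higher and 42.1% lower of all tested probe sets; 9 of 14 is near the background, since 61% of all were called either way. The control lay above every fox in 5 member probe sets and below every fox in 5, beside 21.9% and 55.1% of all, 77% either way. Counted over genes by their main probe sets, 2 of 8 were higher (GCLC and GCLM) and 2 lower (SLC7A11 and MAFG), beside 18.5% and 44.6% of all 15115 genes, 63.2% either way. Without foxes 9, 10 and 11 the calls were 7 of 8 genes, 5 higher and 2 lower, while over all genes they rose to 74.5%, 22.9% higher and 51.6% lower. The median difference of the 8 genes was 0.42, against −0.53 for all genes. The array as a whole lay low: the median over all tested probe sets was −0.46 as deposited, −0.19 with arrays centred on their medians and −0.31 after quantile normalization again, and each member kept its direction under both rescalings. Over all probe sets the calls turned from 8092 higher and 18091 lower to 9348 and 9914 with centred arrays, where the members gave 5 and 5. With 1 control array the fit takes its spread from the foxes, an exact permutation test cannot go below 0.0833, and how far the liver, gut and muscle markers named above bear on these differences was not tested.

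The other genes of the pathway were read from 4 lists of 88 genes, of which 69 were measured. Among NRF2 control partners 7 of 17 measured genes were lower on the control and 2 higher (median −0.42). This is near the share of all genes, 44.6% lower and 18.5% higher (median −0.53). With arrays centred on their medians the split was 3 and 3, beside 26% lower and 21% higher of all genes. CREBBP, a coactivator of NRF2, differed by −2.07 (SE 0.79), NFE2, a blood-lineage relative of NRF2, by −1.60 (SE 0.47) and SYVN1, a ubiquitin ligase, by −0.95 (SE 0.20). NFE2L1, another relative that controls proteasome genes, was higher by 1.41 (SE 0.37). Adjusted p-values by limma for these 4 lay between 0.00174 and 0.0384.

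Of 20 measured further NRF2 target genes 6 were higher and 4 lower on the control (median 0.38). The share of all genes to set beside this and the next 2 lists is 18.5% higher and 44.6% lower. UGDH, which makes UDP-glucuronic acid, was higher by 5.85, the export pump ABCC2 by 3.93, the NADPH-making IDH1 by 3.33 and the peroxiredoxin PRDX1 by 3.12. Among genes that use or break down glutathione 11 of 23 were higher and 6 lower (median 1.22), led by the peptidases LAP3 (6.70) and ANPEP (3.89), the esterase ESD (3.11) and GGCT (2.98), which opens gamma-glutamyl peptides. Of 9 measured further glutathione transferases 5 were higher and 2 lower (median 1.54), a split of 5 and 1 under both rescalings. Of all genes 21% were then higher and 26% lower with centred arrays, and 16.4% and 33.2% after quantile normalization again. The membrane-bound MGST1 was higher by 5.48 and MGST2 by 3.40, GSTO1 by 4.26 and GSTA4 by 2.55. For these 12 genes limma gave adjusted p-values of at most 0.00165.

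Together the lists held 24 genes higher and 19 lower, so that 43 of 69 were called, near the 63.2% of all genes. With centred arrays they held 26 higher and 11 lower, beside 21% and 26% of all genes, 47% either way. Liver and gut express several of these enzymes at high levels, and liver and intestinal markers were high on the same array; their part in the counts was not tested.

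**Figure D3:**
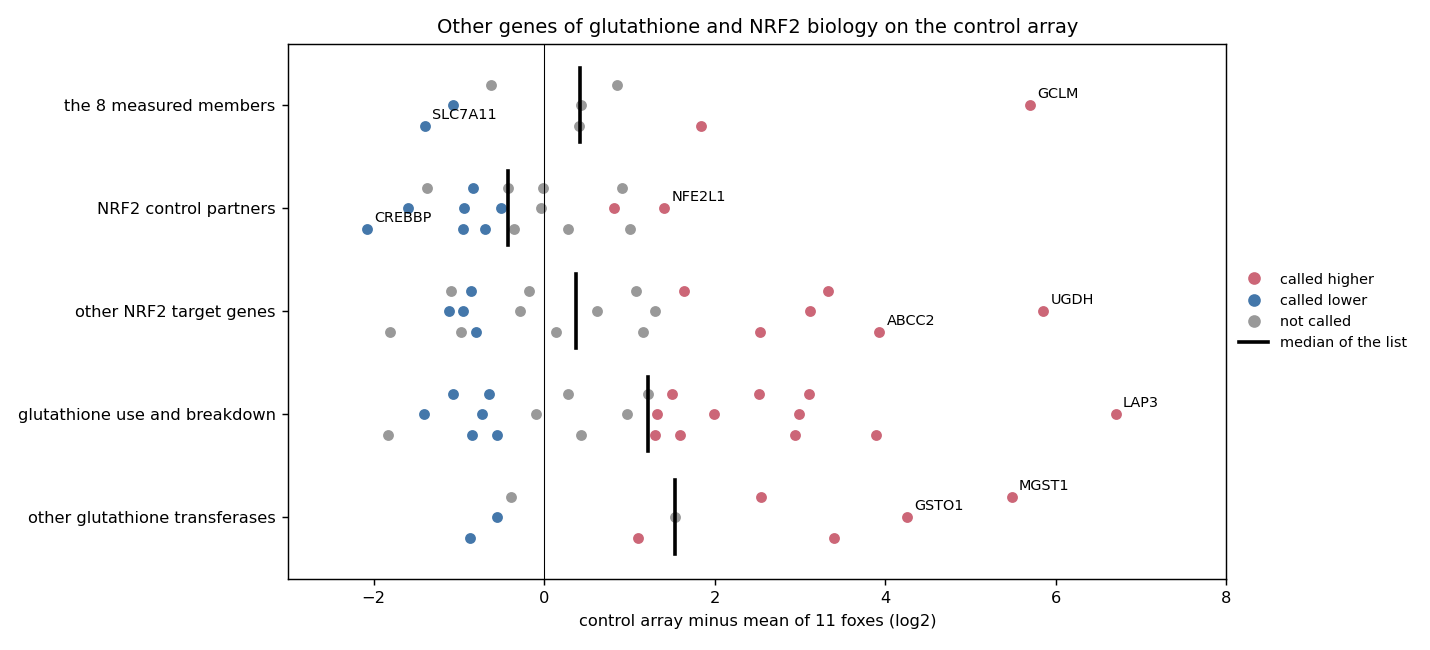
Control array minus the mean of the 11 foxes on the log2 scale (horizontal axis) for the 8 measured members and the measured genes of 4 other lists (rows), 1 probe set per gene, with the call in colour and the list median as a bar. List medians ran from −0.42 for NRF2 control partners to 1.54 for the further glutathione transferases, with LAP3 (6.70), UGDH (5.85) and MGST1 (5.48) farthest out beside GCLM (5.70).

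Between the foxes, the genes of these lists with the largest SD mostly followed foxes 9, 10 and 11. The SD was taken over all 11 foxes, so the pick itself favours genes set apart in those 3. FTL, the ferritin light chain, lay at 10.27 to 12.70 in the first 8 foxes but 14.19 to 14.71 in those 3, and TKT, transketolase of the pentose phosphate pathway, at 10.04 to 12.10 but 13.91 to 14.13. BACH1, the repressor that competes with NRF2 for its sites, lay at 6.34 to 8.18 but 8.28 to 8.79, and GSK3B, a kinase that marks NRF2 for degradation, at 8.69 to 10.38 but 10.45 to 10.90. LAP3 lay at 5.38 to 6.91 but 8.28 to 9.72, and the transferase GSTK1 at 9.31 to 10.83 but 11.50 to 11.87. HAGH (7.75 to 11.69 and 9.89 to 11.31), a glyoxalase, and MGST1 (8.73 to 9.90 and 9.30 to 11.01) overlapped. Of the 69 genes 17 lay above in these foxes and 6 below, beside 14.2% and 14.6% of all genes, 28.8% either way. Of the 8 member genes 4 lay above and 0 below.

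Whether the level of a regulator went with that of the glutathione genes was tested within foxes 1 to 8, by the main probe set of each gene. Of 15 pairs of NFE2L2, KEAP1 or MAFG with GCLC, GCLM, GSS, GSR or SLC7A11, 0 passed after adjustment in an exact two-sided permutation test of Pearson's r, and 1 had an unadjusted p under 0.05. By Spearman's rho 0 passed and 2 had an unadjusted p under 0.05. The strongest was NFE2L2 with GCLM, with r 0.75 (exact permutation p 0.0363, adjusted 0.397, n = 8) and rho 0.83 (exact permutation p 0.0154, adjusted 0.231). NFE2L2 with GCLC had r 0.72 (exact permutation p 0.0529, adjusted 0.397, n = 8) and rho 0.74 (exact permutation p 0.0458, adjusted 0.344).

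Without foxes 1 and 5, the farthest from the median of NFE2L2, r was 0.61 for GCLM and 0.74 for GCLC. With all probe sets of a gene averaged, r was 0.46 for GCLM and 0.26 for GCLC. With arrays centred on their medians, r stayed at 0.73 for GCLM and 0.70 for GCLC. After quantile normalization again both turned, to −0.53 for GCLM and −0.31 for GCLC. NFE2L2 ran from 11.08 to 12.30 as deposited and from 11.51 to 11.95 after quantile normalization again. GCLM ran from 7.07 to 8.09 and from 7.06 to 8.05. The 3 foxes highest in GCLM, foxes 2, 4 and 8, also had the largest array-wide SDs of the 8, 1.76, 1.79 and 1.78. The part of array scaling in the deposited correlation beyond these values was not tested. KEAP1 with GCLM went from −0.11 to 0.90 without foxes 2 and 6, so no relation can be read from either value.

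**Figure D4:**
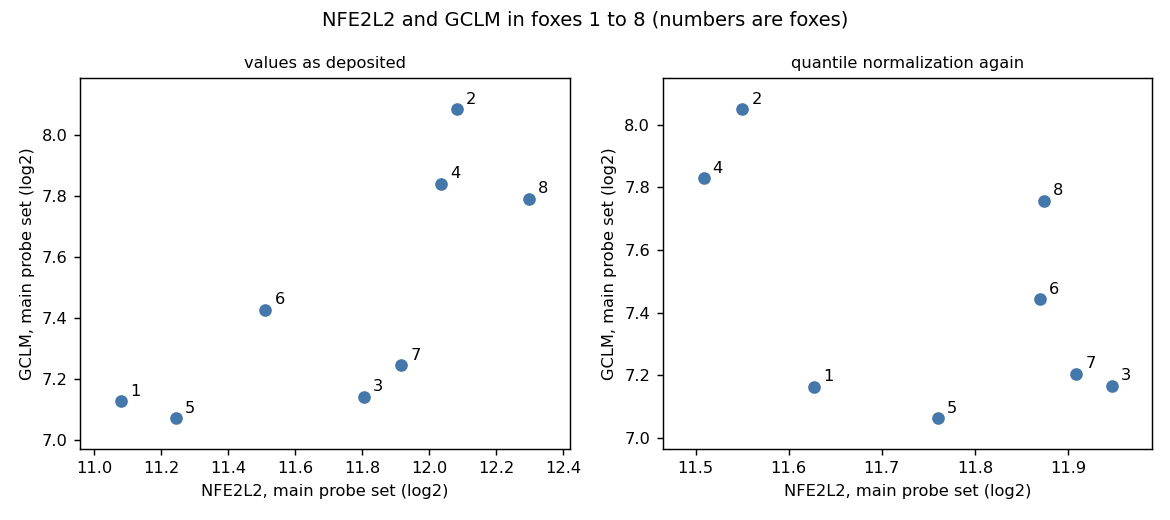
GCLM (vertical axis) against NFE2L2 (horizontal axis), both log2 values, in foxes 1 to 8, with fox numbers beside the points, as deposited (left) and after quantile normalization of these 8 arrays again (right). Foxes 2 and 4 moved from the upper right on the left panel to the upper left on the right panel, and Pearson's r went from 0.75 to −0.53.

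The genes whose levels ran most like each member over foxes 1 to 8 were sought among 7254 genes with a fox mean above that of the median gene, by Pearson's r as a description (n = 8; all values share the same 8 arrays). For GCLM they were ACAA2 (0.99), a thiolase of mitochondrial fatty acid oxidation, and S100A8 (0.99), a calcium-binding protein of neutrophils. S100A8 stood at 13.43, 15.23, 13.63, 14.65, 13.40, 13.92, 13.83 and 14.60 in foxes 1 to 8, so foxes 2, 4 and 8 were high in both. The likeness did not extend to foxes 9 to 11, where S100A8 lay at 14.74 to 15.51 and ACAA2 at 10.48 to 11.06 while GCLM lay at 7.04 to 7.31, at the low end. The neutrophil list mean was 10.53, 10.11 and 10.16 in these foxes and 9.09 to 9.71 in the other 5; its part in the GCLM level was not tested.

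For NFE2L2 they were RPL6 (0.98) and RPL13A (0.98), proteins of the large ribosomal subunit, and for KEAP1 LYPLA2 (0.99), a thioesterase, and CFL2 (0.98), an actin-severing cofilin. For GCLC they were AMHR2 (0.98) and WDR45 (0.97), for SLC7A11 MDFIC (0.97) and SLC35A2 (0.95), and for MAFG ABAT (0.98) and POLR2C (0.93). For GSS they were ASB6 (0.96) and FIGNL1 (0.93), and for GSR MPG (0.93) and TNFRSF18 (0.91). No gene of the members or of the 4 pathway lists was among them. These likenesses describe the 8 foxes by which the genes were picked, and not foxes 9 to 11. NFE2L2 over these foxes changed after quantile normalization again, as given above, and the part of array scaling in the likenesses was not tested.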

How the data were processed

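RNA labelled as blood was measured on Affymetrix Canine Genome 2.0 arrays, 11 of them from Arctic fox samples and 1 titled canine control. The authors deposited log2 expression per probe set, computed by RMA in Expression Console per the submitters' processing notes. RMA as usually run corrects background, equalises the arrays' distributions and combines the probes of a set. The deposited arrays did not share a distribution: their SDs ran from 1.60 in fox 1 to 2.11 on the control. The software version was not given in the sources used here, nor was which arrays were normalized jointly. Of 43035 probe sets, 111 were array controls and 42924 were tested; 29254 of these had 1 gene symbol in the probe annotation, 439 several and 13231 none. A gene was read by its main probe set, chosen by the mean over all 12 arrays. No detection call came with the values, so low levels have no floor, and the number of arrays limits the precision. Genome positions were left out because the arrays carry dog probes.

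The control array, and each fox in turn, was compared with the other foxes by limma 3.58.1 (lmFit and eBayes, R 4.3.3), with Benjamini-Hochberg adjustment over the tested probe sets and 0.05 as threshold. The fit was tested on simulated data. Correlations within foxes 1 to 8 used exact permutation over all 40320 orders. Named were all members, per list up to 4 called genes with the largest difference and the 2 with the largest SD, and the 2 genes most like each member. The members and lists were chosen with earlier results of these data known. Alternatives were a filter on low levels, both rescalings, limma with trend and robust settings, a minimum difference of 1, whether the control left the foxes' range, a gene's averaged probe sets, each fox left out, and foxes 9 to 11 left out.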

Additional observations from a re-analysis of the deposited data

How the results depend on the processing

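Of 218 values of control minus fox for member probe sets under the alternatives, 212 kept their direction and call, 6 gained a call, 0 lost one and 0 changed sign; the calls gained are given with GSS, GSR, KEAP1 and NFE2L2 above. With low-level probe sets left out, 8 of the 14 member probe sets and 6 of the 8 genes remained, of which 3 and 2 were called. Of all genes that remained 60.1% were called. The member probe sets left out had all been called: both of GCLC, the second of GCLM, SLC7A11, and those of NFE2L2 other than the main one. Most member calls thus rest on probe sets below the cut of this filter, a mean over the 12 arrays above 7.12. That cut is the level of the median probe set and not a detection limit. The main GCLC probe set, with 6.96 over the foxes and 8.81 on the control, was left out like SLC7A11, with 6.19 and 4.79. Of the 20 measured further NRF2 target genes, 15 remained under this filter. Without foxes 9, 10 and 11, 7 of 8 member genes were called in place of 4, while the share of all genes called rose from 63.2% to 74.5%. With a difference of at least 1 required, 3 NRF2 control partners were called in place of 9, and 28 genes of the 4 lists in place of 43, beside 29.4% of all genes, as the stricter rule allows fewer calls. With each fox left out in turn, GCLM on the control differed by 5.66 to 5.77 and GCLC by 1.80 to 1.92, by their main probe sets. SLC7A11 differed by −1.44 to −1.35, GSS by its main probe set by 0.76 to 0.91 and GSR by 0.36 to 0.57. The median over all tested probe sets ran from −0.46 to −0.45. For each fox against the others, limma called 0 member values in each of the 5 alternatives, with a smallest adjusted p of 0.091 in foxes 1 to 8 alone, and regulator and target pairs that passed stayed at 0. Without each of foxes 1 to 8 in turn, 0 of 120 exact permutation tests of Pearson's r passed and 4 had an unadjusted p under 0.05, with a smallest adjusted p of 0.302. No paired analysis was possible because there was 1 control array and the labels pair no samples. Signal over background could not be judged without detection calls.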
